A study of Homo sapiens with 3 samples.

Results

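The p53 target genes described here are CDKN1A, MDM2, GDF15, CCNG1, BBC3, BAX, ZMAT3, TP53I3, FAS and GADD45A, the row names given for this set. They are given by name, and were chosen with earlier results of these data known. They make up 10 of the 18692 gene symbols listed for the series, and all 10 were measured in all 3 libraries. The samples were H460, a human large-cell lung carcinoma line, and its derivatives mdR-H460 (mid-term dR-H460) and ldR-H460 (long-term dR-H460). The growth protocol describes reprogramming of cancer cells on a feeder layer of irradiated human fibroblasts, and the labels give no further detail on how the derivatives were made. Each culture gave 1 library of single cells, read from the 3' ends of polyadenylated RNA. A ratio therefore compares 2 libraries, not conditions, and has no replicate behind it. The labels do not say whether a derivative was grown from 1 clone.

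H460 had 4531 cells, mdR-H460 5151 and ldR-H460 4956, and values for all libraries follow this order throughout. Each library totalled 60468481 to 66624830 unique molecular identifiers (UMIs, each standing for 1 captured transcript). Median depth lay between 11736 and 14685 UMIs per cell. Between 24 and 36 cell barcodes were shared by any pair of libraries. A low-depth cluster with a median of 456 UMIs held 9.40%, 13.8% and 5.43% of their cells. Of 8 epithelial carcinoma markers 7 were listed in the files and had UMIs in all 3 libraries, and they summed to 3304, 2779 and 1851 CPM (the UMIs of a gene per 1000000 UMIs of the library). The keratin genes KRT8 and KRT18 lay between 459 and 1755 CPM, KRT19 had 1696, 194 and 40.3 CPM, and EPCAM was near 0, at 0.132 to 0.347 CPM. Of 14 fibroblast markers 10 were listed, and 9, 7 and 7 had UMIs. They summed to 30.5, 11.9 and 16.9 CPM, of which TWIST2 gave 12.1, 7.35 and 10.4. LUM had 308, 9 and 0 UMIs, DCN 65, 0 and 0, and COL1A2 0, 0 and 3, and the part of such cells in the results was not tested.

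The transcription factor p53 is held at low levels by MDM2, a ubiquitin ligase that is itself a p53 target, so the pathway contains a negative feedback loop. When p53 is stabilised, it binds response elements made of repeated half-sites and raises transcription of genes that stop the cell cycle, repair DNA or start apoptosis. Several of these genes are also driven by other factors, such as the stress factors ATF4 and DDIT3, so a change in one target is not by itself a measure of p53 activity.

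Promoter sequences are shown for CDKN1A and GDF15, the pair of members whose cell-to-cell correlation was at least 0.1 in all 3 libraries, for CCNG1, which was highest in ldR-H460, and for RPS27L and FDXR, p53 targets outside the set that are among the genes most like it. Each is the stretch of 120 bases before the RefSeq gene start on GRCh38.p14, 5′ to 3′ on the strand of the gene. Capitals mark the p53 half-site in RPS27L and FDXR, and GGGCGG on either strand or TATAAA in the others.
CDKN1A, chr6:36678594-36678713, plus strand: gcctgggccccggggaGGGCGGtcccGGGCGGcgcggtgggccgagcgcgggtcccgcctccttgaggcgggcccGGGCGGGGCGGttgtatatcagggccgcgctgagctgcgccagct
GDF15, chr19:18386038-18386157, plus strand: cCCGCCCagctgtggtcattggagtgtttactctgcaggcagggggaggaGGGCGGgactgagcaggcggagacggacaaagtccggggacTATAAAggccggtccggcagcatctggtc
CCNG1, chr5:163437451-163437570, plus strand: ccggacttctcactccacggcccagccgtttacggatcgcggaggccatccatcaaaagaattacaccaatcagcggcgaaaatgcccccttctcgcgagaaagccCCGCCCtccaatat
RPS27L, chr15:63157478-63157597, minus strand: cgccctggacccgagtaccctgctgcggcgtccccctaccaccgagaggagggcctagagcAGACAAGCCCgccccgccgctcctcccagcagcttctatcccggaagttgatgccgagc
FDXR, chr17:74872995-74873114, minus strand: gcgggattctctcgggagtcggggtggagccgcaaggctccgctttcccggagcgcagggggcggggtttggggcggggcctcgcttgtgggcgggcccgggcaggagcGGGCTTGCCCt

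The RefSeq windows, which run from 250 bases before to 50 bases after each start, were searched for 4 motifs on both strands. A window was found for 9 of the 10 members, all but GADD45A. The p53 half-site was found in 0 of 9 members and in 6.63% of all 35116 windows. Among 29 other p53 targets it was found in 5: AEN, FDXR, PLK2, RAP2B and RPS27L. GGGCGG occurred in 7 of 9 members against 44.95% of all windows, and in the CDKN1A stretch printed above a pair of its 4 copies overlapped by 1 base. In RPS27L a copy of GGGCGG on the opposite strand overlapped the end of the half-site. TATAAA occurred in GDF15 alone among the 9 (11.5% of all windows), and TGATGNAA, a letter pattern of ATF4 and CEBP factor sites, in 0 of 9 (3.62% of all windows). These are matches of letters in a short window and say nothing of binding at more distant elements.

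MDM2, the p53 ubiquitin ligase of the feedback loop (chromosome 12, 68808176 to 68850686, plus strand, GRCh38), was measured at 20.5 CPM in H460, 16.7 in mdR-H460 and 12.4 in ldR-H460. H460 was highest and ldR-H460 lowest, and the 3 counting intervals did not overlap. In ldR-H460 MDM2 was 1.65-fold (1.51 to 1.81) lower than in H460 (95% counting interval, which covers counting error only). In mdR-H460 it was 1.23-fold (1.13 to 1.33) lower than in H460.

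MDM4, the MDM2 partner that also inhibits p53, was measured at 25.6, 17.8 and 25.9 CPM. The lowest library was mdR-H460, and H460 and ldR-H460 had overlapping intervals.

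CDKN1A encodes p21, the cyclin-dependent kinase inhibitor that carries out much of the p53 arrest (chromosome 6, 36676460 to 36687339, plus strand). Its level was 40.6 CPM in H460, 40.9 in mdR-H460 and 21.6 in ldR-H460. H460 and mdR-H460 did not differ beyond counting error, at a ratio of 1.01 (0.955 to 1.06), while ldR-H460 was 1.88-fold (1.76 to 2.01) below H460.

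CCNG1 encodes cyclin G1, a p53 target linked to MDM2 regulation (chromosome 5, 163437569 to 163446151, plus strand). It was measured at 42.9, 73.5 and 133 CPM, with the order reversed from that of MDM2: H460 lowest and ldR-H460 highest. Relative to H460 it was 1.71-fold (1.63 to 1.79) higher in mdR-H460 and 3.10-fold (2.97 to 3.23) higher in ldR-H460. No other member was highest in ldR-H460 over all cells.

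GADD45A, a stress gene with roles in growth arrest and DNA repair (chromosome 1, 67685061 to 67688338, plus strand), stood at 70.6, 107 and 50.3 CPM. It was 1.52-fold (1.47 to 1.58) higher in mdR-H460 and 1.40-fold (1.34 to 1.47) lower in ldR-H460 than in H460. Without a cluster of 232 cells led by the genes HSPA6 and DDIT3, the log2 ratio of mdR-H460 to H460 went from 0.60 to 0.54, just under the 1.5-fold line.

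GDF15 encodes a secreted cytokine of the TGF-beta superfamily that both p53 and the integrated stress response can induce (chromosome 19, 18374731 to 18389176, plus strand). Its levels were 70.2, 172 and 43.3 CPM. The mdR-H460 value was 2.45-fold (2.36 to 2.53) above H460, and the ldR-H460 value was 1.62-fold (1.55 to 1.70) below H460 and 3.97-fold (3.80 to 4.14) below mdR-H460. GDF15 had the widest range of the 10 members.

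Over all cells, the pro-apoptotic members were highest in mdR-H460 with 1 exception. BBC3 encodes PUMA, a BH3-only activator of apoptosis (chromosome 19, 47220822 to 47232766, minus strand), and had 4.50, 7.88 and 5.84 CPM. It was 1.75-fold (1.52 to 2.02) higher in mdR-H460 than in H460 from 525 against 298 UMIs. BAX encodes the pore-forming protein of the mitochondrial outer membrane (chromosome 19, 48954815 to 48961798, plus strand). At 168, 217 and 153 CPM it was 1.29-fold (1.26 to 1.33) higher in mdR-H460 and 1.10-fold (1.07 to 1.13) lower in ldR-H460 than in H460.

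FAS encodes a cell-surface death receptor (chromosome 10, 88990582 to 89015785, plus strand) and had 5.06, 6.44 and 4.20 CPM, lowest in ldR-H460. It was 1.53-fold (1.31 to 1.80) lower in ldR-H460 than in mdR-H460. Exons of FAS overlap those of ACTA2 on the opposite strand, and ACTA2 had 7.36, 6.57 and 6.15 CPM. The sources used here do not state how reads from such overlaps were assigned, so FAS is uncertain.

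TP53I3 encodes PIG3, an oxidoreductase linked to oxidative stress in apoptosis (chromosome 2, 24077433 to 24085861, minus strand). It was the exception, with 48.7, 39.5 and 40.6 CPM and its highest level in H460. The derivatives were 1.23-fold (1.17 to 1.30) and 1.20-fold (1.14 to 1.27) lower than H460 and did not differ from each other beyond counting error, at a ratio of 1.03 (0.972 to 1.09). Its exons overlap those of FAM228B on the opposite strand (1.36 to 3.14 CPM).

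ZMAT3, an RNA-binding zinc finger protein that regulates splicing and RNA stability (chromosome 3, 179017223 to 179072279, minus strand), differed least over all cells. It had 10.8, 13.04 and 11.9 CPM, and ldR-H460 did not differ beyond counting error from H460 (1.09-fold, 0.984 to 1.21, higher) or from mdR-H460 (1.10-fold, 0.995 to 1.22, lower).

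**Figure D1:**
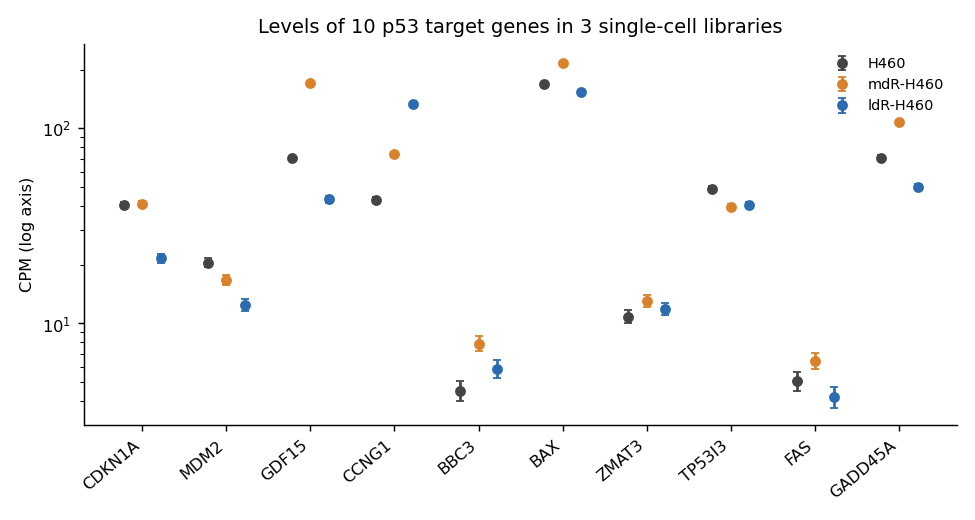
CPM (log axis) of the 10 members in the 3 libraries, 1 point per library with its 95% counting interval. GDF15 peaks in mdR-H460 at 172 CPM, CCNG1 climbs to 133 CPM in ldR-H460, and CDKN1A is level in H460 and mdR-H460 and lowest in ldR-H460 at 21.6 CPM.

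Beside all genes, more members were higher in mdR-H460 than in H460, while the count of lower members in ldR-H460 against H460 was near that of all genes. The members were chosen with earlier results of these data known, so these counts are a description. A gene counted as measured if its higher library had at least 1 CPM. In mdR-H460 against H460, 4 of 10 members were at least 1.5-fold higher (GDF15, BBC3, CCNG1 and GADD45A) and 0 were as much lower, where 6.21% of the 12002 measured genes were higher and 22.5% lower. The members had a median log2 ratio of 0.36, beside -0.17 for all measured genes.

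In ldR-H460 against H460, CCNG1 was the 1 member of 10 at least 1.5-fold higher, and 3 were lower (CDKN1A, MDM2 and GDF15). The shares over 12151 genes were 11.6% higher and 21.9% lower, so the count of lower members is near the background. In cells called G1, 0 members were lower and 2 higher (CCNG1 and ZMAT3), and the median log2 ratio of all measured genes was -0.19. The shares above are for all cells and are not the background of that G1 count. Over all cells, medians of the log2 ratio were -0.27 for the members and -0.13 for all measured genes.

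In ldR-H460 against mdR-H460, 4 members were lower (GDF15, GADD45A, CDKN1A and FAS) and CCNG1 was higher, where 10.6% of 11799 genes were lower and 14.6% higher. Medians were -0.47 and 0.08. GADD45A was 2.13-fold (2.05 to 2.23) lower and CDKN1A 1.90-fold (1.77 to 2.03) lower. In cells called G1 the CDKN1A log2 ratio of that pair was -0.34 in place of -0.92, which is less than 1.5-fold. Each pair of comparisons shares a library, so the 3 sets of ratios are not independent of each other.

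The shares over all genes depend on the scaling. With TMM factors in place of UMI totals, the median log2 ratio of all genes went up by 0.19 in mdR-H460 against H460 and by 0.12 in ldR-H460 against H460. Of all genes 10.8% were then higher and 15.0% lower in mdR-H460 than in H460, beside the same counts of 4 and 0 members. In ldR-H460 against H460 the shares became 15.1% and 17.5%, and GDF15, at a log2 ratio of -0.58, was no longer among the lower members.

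**Figure D2:**
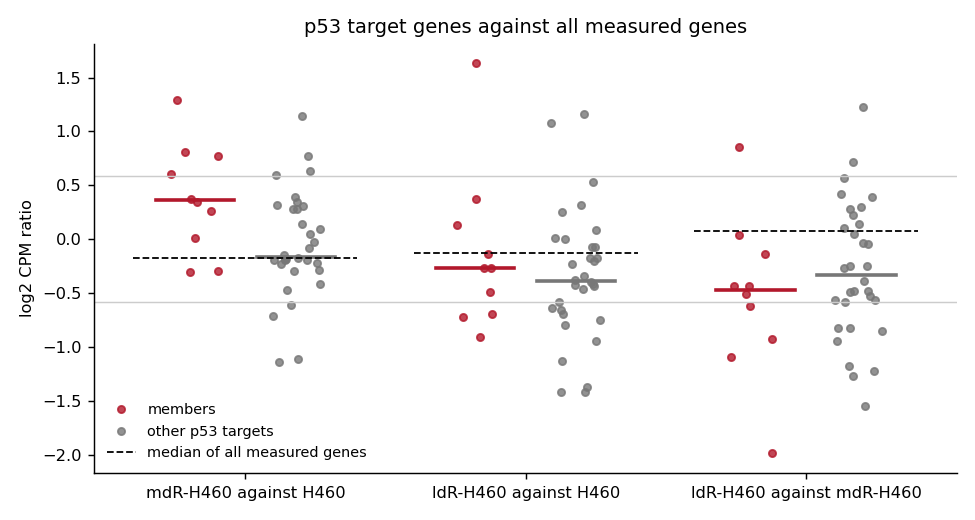
Log2 CPM ratios for each pair of libraries, 1 point per gene, for the 10 members (red) and 32 other p53 targets (grey), with each list's median as a solid bar, the median of all measured genes dashed and the 1.5-fold lines in pale grey. The median of the members is 0.36 in mdR-H460 against H460, while that of the other targets, -0.16, lies at the median of all genes.

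Of 38 other p53 targets listed 32 were measured, and 4 were at least 1.5-fold higher and 4 lower in mdR-H460 than in H460, where 6.21% of all genes were higher and 22.5% lower. With TMM factors 4 were higher and 2 lower, beside 10.8% and 15.0% of all genes. Without the cells of a cluster led by HSPA6, 2 were higher and 4 lower. The shares of all genes given here are not the background of those last counts. The higher ones were the sestrins SESN1 (2.21-fold, 1.72 to 2.84) and SESN2 (1.55-fold, 1.38 to 1.75), which restrain growth signalling under stress, NINJ1 (1.71-fold, 1.65 to 1.77), which ruptures the membrane of dying cells, and SERTAD1 (1.51-fold, 1.39 to 1.64). The lower ones included APAF1, the scaffold of the apoptosome (2.16-fold, 1.84 to 2.55), and FDXR, the mitochondrial ferredoxin reductase (1.52-fold, 1.43 to 1.62). RAP2B was 2.21-fold and SUSD6 1.64-fold lower.

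In ldR-H460 against H460, 10 of the 32 were lower and 2 higher, beside 21.9% and 11.6% of all genes, and the median log2 ratio was -0.39 beside -0.13. With TMM factors 7 were lower and 3 higher, beside 17.5% and 15.1%. SFN, which encodes the G2 checkpoint protein 14-3-3 sigma, was 2.67-fold (2.56 to 2.78) lower at 47.4 against 127 CPM. PHLDA3, an inhibitor of AKT signalling, was 2.59-fold (2.46 to 2.73) lower, and the antiproliferative gene BTG2 and the kinase gene PLK3 were 2.67-fold and 2.19-fold lower. NINJ1 was 2.24-fold (2.17 to 2.31) higher and KITLG, the ligand of the KIT receptor, 2.11-fold (1.77 to 2.52) higher. In ldR-H460 against mdR-H460, 8 were lower, with TIGAR, a regulator of glycolysis, at 2.33-fold (2.12 to 2.57) and SESN2 at 2.41-fold (2.10 to 2.78), and 2 were higher (KITLG and APAF1), beside 10.6% and 14.6% of all genes. Without the HSPA6 cluster 5 were lower, and the share of 10.6% is not the background of that count.

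Among 17 measured genes for regulators and relatives of p53, 0 were at least 1.5-fold higher and 5 lower in mdR-H460 than in H460, beside 6.21% and 22.5% of all genes, so the lower count is near the background. They included the checkpoint kinase CHEK2 (2.38-fold, 2.15 to 2.63), the acetyltransferase CREBBP (2.02-fold, 1.78 to 2.29), the kinase HIPK2 that phosphorylates p53 (1.95-fold, 1.81 to 2.11) and COP1, another p53 ubiquitin ligase (1.89-fold, 1.75 to 2.05). In ldR-H460 against H460 the 2 lower genes were COP1 (2.29-fold, 2.10 to 2.50) and CHEK2 (2.00-fold, 1.81 to 2.21). Of all genes 21.9% were lower in that pair. HIPK2 and the DNA damage kinase ATM were the 2 genes higher in ldR-H460 than in mdR-H460, by 2.30-fold (2.13 to 2.48) and 1.98-fold (1.76 to 2.22). Of all genes 14.6% were higher there.

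The integrated stress response raises translation of ATF4 when protein synthesis is checked, and ATF4 then induces DDIT3, amino acid enzymes and other genes. In mdR-H460 against H460, 7 genes of this list passed the 1.5-fold limit upward and 2 downward out of 18 measured, beside 6.21% and 22.5% of all genes. DDIT3 had 41.6, 76.5 and 10.3 CPM, the same order of libraries as GDF15, GADD45A, BAX and FAS, and as some other p53 targets, such as TIGAR and SESN2. ATF3, a factor induced by both pathways, had 31.9, 31.0 and 9.44 CPM, level in H460 and mdR-H460 and low in ldR-H460 as CDKN1A was.

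Other genes of the list had another order of libraries. The amino acid enzyme gene ASNS was 2.47-fold (2.28 to 2.67) higher in mdR-H460 and 2.50-fold (2.31 to 2.70) higher in ldR-H460 than in H460, and PHGDH was 1.71-fold and 2.30-fold higher. CTH, another amino acid enzyme gene, had the order of DDIT3, at 8.93, 15.1 and 3.79 CPM. ATF4 itself was highest in ldR-H460, at 334 CPM against 168 in H460. In ldR-H460 against H460, 5 genes of the list were higher and 7 lower, beside 11.6% and 21.9% of all genes. Against mdR-H460 1 was higher and 8 lower, beside 14.6% and 10.6%, with DDIT3 7.46-fold (6.86 to 8.12) lower.

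The pathway that p21 acts on was examined through 17 measured genes of G1 cyclins, their kinases and the RB-E2F switch. In mdR-H460 against H460, 2 were at least 1.5-fold higher (E2F4 and CDKN2C) and 5 lower, beside 6.21% and 22.5% of all genes, so the lower count is near the background. Among the lower genes were CCNE2, a cyclin E gene (2.81-fold, 2.40 to 3.30), CDK6 (2.80-fold, 2.59 to 3.03) and RB1 (1.69-fold, 1.496 to 1.90). In ldR-H460 against H460, CCNE2 (3.84-fold, 3.20 to 4.63), CCNE1 (2.02-fold, 1.81 to 2.27) and RBL1 were lower, and CDKN2C (2.05-fold, 1.87 to 2.25) and E2F4 were higher. Of all genes 21.9% were lower and 11.6% higher in that pair. Against mdR-H460, CDK6 and RBL2 were higher in ldR-H460 and 0 genes were lower, beside 14.6% and 10.6% of all genes.

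The share of cells called G1 was lowest in ldR-H460, and several members had different levels in cells of different called phase. Phases were called from lists of S phase and G2/M genes in cells thinned to 5000 UMIs, and G1 is the class of cells in which neither list scores high. Cells called G1 were 34.9% (33.4 to 36.5) of 3850 thinned H460 cells, 33.7% (32.2 to 35.2) of 3880 mdR-H460 cells and 16.6% (15.5 to 17.7) of 4521 ldR-H460 cells, with exact Clopper-Pearson 95% intervals. G2/M calls were 25.7%, 39.3% and 47.3%. These calls alone do not measure cycling, come from 1 library per group and leave out the cells under 5000 UMIs. Free RNA in the droplets was not estimated, and its part in these calls was not tested.

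Within each library, between 3 and 5 of the 10 members were at least 1.5-fold higher in G1 than in G2/M cells and 0 were as much lower. The counts were 3 in H460 (GDF15, BBC3 and TP53I3), 5 in mdR-H460 (these and CDKN1A and ZMAT3) and 5 in ldR-H460 (CDKN1A, MDM2, GDF15, ZMAT3 and TP53I3). Beside them, 14.5%, 22.4% and 13% of all genes with at least 0.01 UMI per cell were higher in G1, and 15.5%, 18% and 19.8% were lower. Calls rest on 751 to 2138 cells per phase in each library, which are not replicates. For BBC3 in H460 and mdR-H460, 56 and 89 thinned UMIs lay in G1 cells. The HSPA6 cluster, most of whose thinned cells were called G1, held 33 and 77 over all phases. Phase ratios without that cluster were not computed, so the BBC3 excess in G1 may not hold outside it.

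CDKN1A had the steepest phase difference in ldR-H460. Its mean per thinned cell was 0.308, 0.374 and 0.249 UMIs in G1 cells, against 0.216, 0.157 and 0.0683 in G2/M cells. The G1 mean was thus 1.43-fold (1.21 to 1.69), 2.39-fold (2.04 to 2.80) and 3.65-fold (2.92 to 4.56) higher.

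The lower CDKN1A of ldR-H460 was smallest in G1 cells. Relative to H460 it was 1.24-fold (1.04 to 1.48) lower in G1 cells, 1.499-fold (1.21 to 1.86) lower in S cells and 3.16-fold (2.55 to 3.93) lower in G2/M cells. With the G1 cells taken at their own depth and their UMIs summed, the log2 ratio of ldR-H460 to H460 was 0.030, against -0.91 over all cells. How far the smaller G1 share of ldR-H460 accounts for its lower CDKN1A was not tested.

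GDF15 in G1 cells averaged 0.556, 2.28 and 0.461 UMIs. The excess of mdR-H460 over H460 was 4.10-fold (3.78 to 4.44) in G1, 3.27-fold (2.84 to 3.78) in S and 1.61-fold (1.40 to 1.86) in G2/M cells, so it was present in every called phase and widest in G1. The GDF15 deficit of ldR-H460 against H460 was 1.21-fold (1.06 to 1.38) in G1 and 1.72-fold (1.46 to 2.02) in G2/M cells, and in S cells the libraries did not differ beyond counting error (1.06-fold higher, 0.903 to 1.25).

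MDM2 followed CDKN1A in ldR-H460 cells: its deficit against H460 was within counting error in G1 (1.21-fold, 0.921 to 1.59), 1.58-fold (1.17 to 2.13) in S and 1.92-fold (1.47 to 2.52) in G2/M. In ldR-H460 MDM2 itself was 1.90-fold (1.41 to 2.54) higher in G1 than in G2/M cells. In H460 and mdR-H460 those phases did not differ beyond counting error.

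CCNG1 and BAX had little or no G1 excess. CCNG1 was 1.12-fold (1.02 to 1.24) higher in G1 than in G2/M cells of ldR-H460 and lower in G1 in mdR-H460, by 1.15-fold (1.01 to 1.31). It was 3.30-fold (2.86 to 3.81), 3.71-fold (3.25 to 4.25) and 2.59-fold (2.26 to 2.97) higher in ldR-H460 than in H460 in G1, S and G2/M cells. BAX was lower in G1 than in G2/M cells, by 1.22-fold (1.11 to 1.33) in H460 and 1.42-fold (1.32 to 1.53) in mdR-H460, and level in ldR-H460. TP53I3 was 1.77-fold to 1.86-fold higher in G1 in all 3 libraries, and between libraries its G1 means of 0.302 to 0.331 UMIs did not differ beyond counting error. ZMAT3 was 1.48-fold (1.11 to 1.97) higher in ldR-H460 than in H460 in G1 cells and 1.51-fold (1.07 to 2.14) higher in S cells. In G2/M cells ZMAT3 of those libraries did not differ beyond counting error (1.29-fold lower, 0.915 to 1.82).

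**Figure D3:**
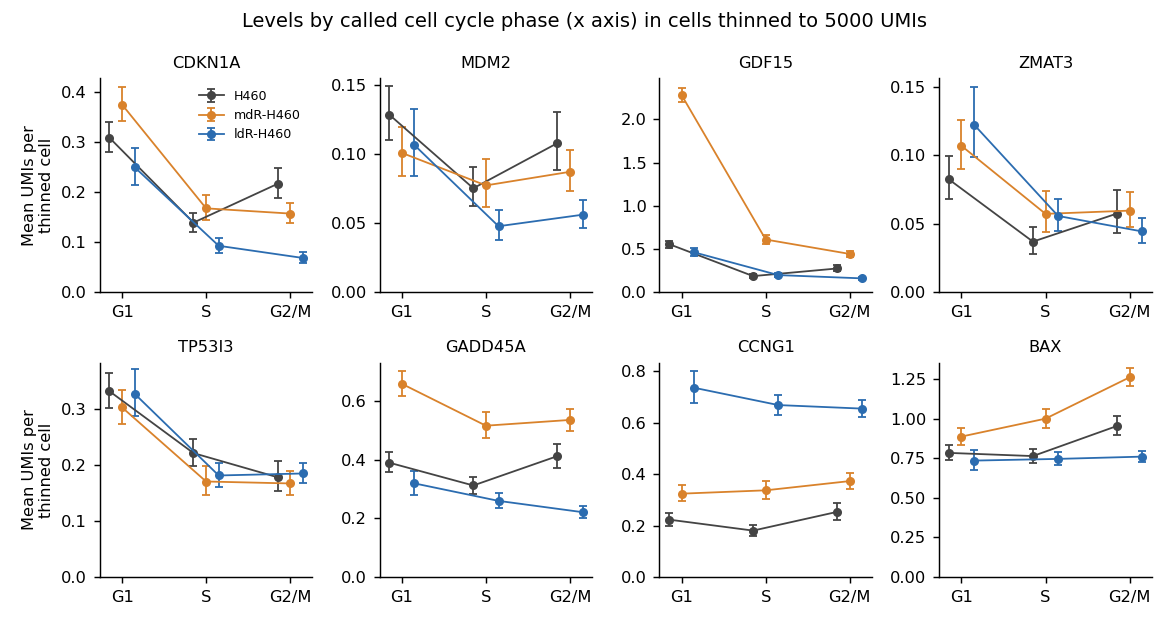
Mean UMIs per cell thinned to 5000 UMIs (y axis, with 95% counting intervals) by called phase (x axis) for 8 members in the 3 libraries. CDKN1A, GDF15, ZMAT3 and TP53I3 are highest in G1 in every library, while CCNG1 of ldR-H460 lies at 0.655 to 0.736 UMIs in every phase.

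Cells differed from each other more in some members than in others. The Fano factor, the variance of the thinned count divided by its mean, lies near 1 when counts vary by sampling alone, and its median over all genes was 1.04, 1.05 and 1.03. GDF15 had 4.32, 8.12 and 1.99, with up to 78 UMIs in a single thinned cell of mdR-H460. GADD45A had 2.91, 4.02 and 1.21, CDKN1A 2.23, 2.06 and 1.36, and BBC3 1.80, 2.40 and 1.08.

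These 4 genes were thus most uneven in H460 and mdR-H460 and closer to sampling noise in ldR-H460. FAS (0.981 to 1.04) and ZMAT3 (1.03 to 1.08) lay near the median of all genes in each library. CCNG1 stayed between 1.02 and 1.10 although its level differed 3.10-fold between libraries.

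A cluster of 232 cells was led by HSPA6, a heat-shock gene, and DDIT3. Clustering of all cells put 69 H460 cells (1.52%), 163 mdR-H460 cells (3.16%) and 0 of 4956 ldR-H460 cells in it, and a count of 0 allows a share of up to 0.0605% there. Of its thinned cells 47 of 58 in H460 and 78 of 95 in mdR-H460 were called G1. The members took part in the clustering, so their levels in it are a description. Without it the Fano factors in H460 and mdR-H460 were 1.33 and 1.74 for GADD45A, 1.82 and 1.37 for CDKN1A, 1.07 and 1.15 for BBC3, and 4.02 and 8.23 for GDF15. The BBC3 values were then near the median of all genes, and those of GDF15 stayed high.

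In those cells GADD45A averaged 3.98 UMIs in H460 and 5.02 in mdR-H460, CDKN1A 1.64 and 1.87, and BBC3 0.569 and 0.811. For comparison, the library means were 0.365 and 0.573, 0.218 and 0.233, and 0.0265 and 0.0466. The cluster gave 28.2% and 33.9% of all BBC3 UMIs of H460 and mdR-H460, 11.3% and 15.5% of GADD45A and 7.71% and 15.1% of CDKN1A. TP53I3 went the other way, at 0.0862 and 0.0105 UMIs against library means of 0.248 and 0.213. Without the cluster, BBC3 in ldR-H460 against H460 had a log2 ratio of 0.84 in place of 0.37. Against mdR-H460 its log2 ratio was 0.14 in place of -0.43, and no counting interval was computed for it. The thinned BBC3 means without the cluster were 0.0275 UMIs in mdR-H460 and 0.0283 in ldR-H460, so the order of those libraries is uncertain.

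The GDF15 UMIs of mdR-H460 lay mainly in another cluster. The members took part in that clustering too, so the levels given here are a description. A cluster of 1730 mdR-H460 cells (33.6%), led by the fibrinogen gene FGG and with GDF15 among its leading genes, gave 63.1% of the GDF15 UMIs of that library. Its thinned cells averaged 2.20 UMIs of GDF15, against 0.421 in the larger mdR-H460 cluster. In ldR-H460 a cluster led by ANKRD1 (30.5% of cells) averaged 0.186 UMIs of CDKN1A, 0.356 of GDF15 and 0.337 of TP53I3, against 0.0678, 0.154 and 0.146 in the larger cluster.

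Cell-to-cell correlation between members was weak, and CDKN1A with GDF15 was the 1 pair with a value of at least 0.1 in all 3 libraries. Pearson's r was computed on ln(1 + UMIs) over the 3850 to 4521 thinned cells of a library, which share that library's preparation and depth, and is given as a description. Of 45 pairs of members, 6 in H460, 6 in mdR-H460 and 2 in ldR-H460 had r of 0.1 or more, beside 0.17%, 0.549% and 0.122% of all gene pairs with at least 0.05 UMI per cell. The median r of the member pairs was 0.037, 0.031 and 0.028.

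CDKN1A and GDF15 had r of 0.18, 0.17 and 0.17, and 0.17, 0.15 and 0.17 without the HSPA6 cluster. In G1 cells without that cluster the values were 0.15, 0.11 and 0.17. CDKN1A and MDM2 had 0.12, 0.11 and 0.093. ZMAT3 joined CDKN1A in ldR-H460, at 0.12.

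The highest pair in H460 and mdR-H460 was BBC3 with GADD45A, at 0.21 and 0.24, and it had 0.025 in ldR-H460. Without the HSPA6 cluster it had 0.090 and 0.071. CDKN1A with BBC3 went from 0.15 and 0.20 to 0.026 and 0.039, and CDKN1A with GADD45A from 0.18 and 0.19 to 0.080 and 0.072. With the cluster left out, 2 pairs reached 0.1 in each library, and the share of all gene pairs was not computed without it in H460 and mdR-H460. CCNG1, BAX, FAS and TP53I3 reached 0.1 with no other member in any library over all thinned cells.

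**Figure D4:**
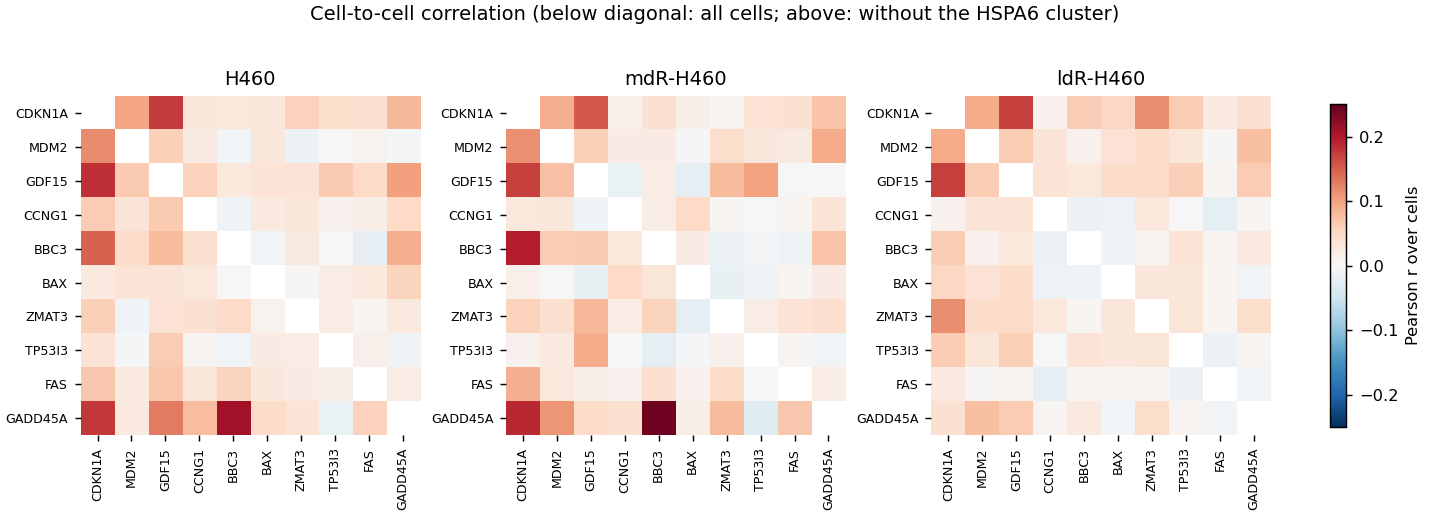
Pearson r over thinned cells for each pair of members in the 3 libraries (colour scale from -0.25 to 0.25), over all cells below the diagonal and without the HSPA6 cluster above it. The CDKN1A and GDF15 pair keeps its colour on both sides, while BBC3 with GADD45A pales above the diagonal in H460 and mdR-H460.

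Sorting cells by their CDKN1A count gave the same picture in levels. In H460, GDF15 averaged 0.258, 0.622, 1.04 and 2.04 UMIs in cells with 0, 1, 2 and 3 or more CDKN1A UMIs. In mdR-H460 the means were 0.955, 1.62, 2.09 and 3.98. In ldR-H460 they were 0.188, 0.555 and 0.848 with 0, 1 and 2, and 0.615 (0.266 to 1.21) with 3 or more. MDM2 went from 0.0878 to 0.143 and 0.317 UMIs in H460 between 0, 1 and 2 CDKN1A UMIs, and had 0.286 (0.123 to 0.563) with 3 or more.

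The top class was small, with 28, 50 and 13 cells, and 14 and 22 of those in H460 and mdR-H460 lay in the HSPA6 cluster. GADD45A in that class averaged 4.46 UMIs in H460 and 0.929 without the cluster, where cells with 0 CDKN1A UMIs had 0.288. In mdR-H460 it averaged 3.86 UMIs and 2.29 without the cluster (28 cells). Cells of mdR-H460 outside the cluster with 0, 1 and 2 CDKN1A UMIs had 0.440, 0.499 and 0.427. For BBC3 in H460 the means of the top class were 0.714 and 0.0714 without the cluster. CCNG1 varied little with CDKN1A in ldR-H460, from 0.669 to 0.769 UMIs. BAX in that library had 0.736 (0.710 to 0.762), 0.896 (0.799 to 1.001) and 1.02 (0.751 to 1.36) UMIs with 0, 1 and 2 CDKN1A UMIs. With 3 or more it had 0.692 (0.317 to 1.31).

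**Figure D5:**
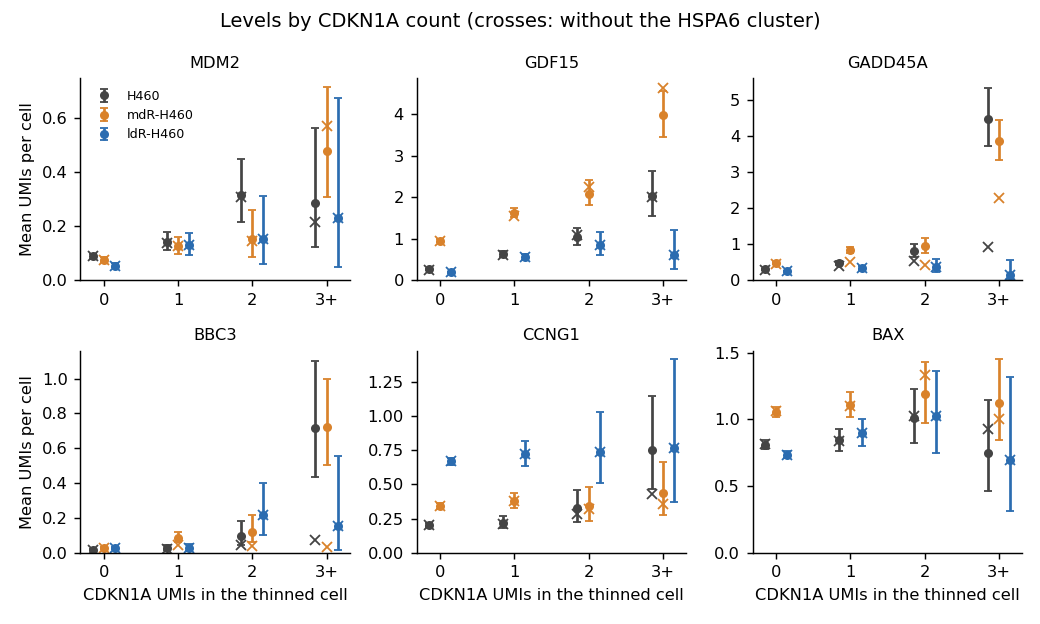
Mean UMIs per thinned cell of 6 members (y axis, with 95% counting intervals) by the CDKN1A count of the cell (x axis) in the 3 libraries, with crosses for means without the HSPA6 cluster. GDF15 is higher in cells with more CDKN1A up to 2 UMIs in every library. In H460 and mdR-H460 the high GADD45A and BBC3 means at 3 or more UMIs drop to the crosses, with GADD45A of mdR-H460 still at 2.29 UMIs.

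The genes most like the members were found from a score, the mean of the 10 standardised counts of a cell. Ranked by the lowest r with the score over the 3 libraries, out of 5248 genes, RPS27L came first with 0.22, 0.21 and 0.19. RPS27L encodes a ribosomal protein paralog that p53 induces, and its promoter is printed above. PHLDA3 followed with 0.21, 0.21 and 0.092, and FDXR had 0.10, 0.076 and 0.089. Of the 10 genes, 3 were on the list of other p53 targets, and the rest were CXCL2, ANXA2, IER3, SAT1, TIMP1, TGFBI and CXCL3. Without the HSPA6 cluster CXCL2 had 0.030 and 0.049 in H460 and mdR-H460, CXCL3 0.043 and 0.020, TGFBI 0.041 and 0.050, and SAT1 0.016 and 0.10.

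Other p53 targets reached r of 0.1 with the score in 7 of 18 genes in H460, 9 of 17 in mdR-H460 and 1 of 15 in ldR-H460, beside 1.25%, 3.41% and 0.119% of all genes. Without the HSPA6 cluster they numbered 3 in H460 (FDXR, PHLDA3 and RPS27L) and 2 in mdR-H460 (PHLDA3 and RPS27L), beside 0.112% and 0.105% of all genes. AEN, a p53-induced exonuclease, had 0.18 and 0.25 in H460 and mdR-H460 and 0.0065 and 0.038 without the HSPA6 cluster. RPS27L kept 0.20 and 0.17 without it. DDIT3 of the stress response had 0.27 and 0.32 with the cluster and -0.0018 and 0.078 without it.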

How the data were processed

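Single-cell 3' RNA libraries of H460, mdR-H460 and ldR-H460, 1 per group, were analysed from tables of UMI counts per gene symbol and cell. The deposited counts were whole numbers without normalization, for cells the authors had kept after quality filtering, per the series design text. The submitters' processing notes name Cell Ranger 3.0.2, Seurat 3.0 and GRCh38. The annotation release was not given in the sources used here.

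UMIs were summed per library and divided by its total to give CPM, with exact Poisson intervals for levels and exact binomial-based intervals for ratios, all at 95%. The precision is set by 60468481 to 66624830 UMIs per library, and intervals and floors (3 counts) cover counting error only. No p-value was computed. For phases and correlations each cell was thinned to 5000 UMIs, which left out 681, 1271 and 435 shallower cells (15.0%, 24.7% and 8.78%) of H460, mdR-H460 and ldR-H460. Phases were called in scanpy 1.11.5 from S phase and G2/M gene lists. Leiden clusters (resolution 0.5) came from 30 principal components of 2000 variable genes with 15 neighbours, without batch correction. Doublets were not called and all deposited cells were kept. Code was tested on simulated data.

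All 10 members are named, with MDM4. Some genes are not reported here. From each list (other p53 targets, regulators and relatives of p53, integrated stress response, G1 cyclins with RB and E2F) up to 4 measured genes with the largest ratio of at least 1.5-fold in each direction could be named, and the 10 genes most like the members are named. AEN and the genes with a promoter match are given outside that rule and were chosen after their values were seen. COP1 was matched through an older symbol in RefSeq. Members and lists were chosen with earlier results of these data known. Positions come from GENCODE release 29, and promoters are the first RefSeq entry of each symbol. Alternatives were edgeR 4.0.16 TMM factors, DESeq2 1.42.0 size factors, totals that leave out mitochondrially encoded and ribosomal protein genes, equal weight per cell, thinned cells, G1 cells, other limits on cells, cells without the HSPA6 cluster, a minimum of 10 CPM, and other forms of the correlation.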

Additional observations from a re-analysis of the deposited data

How the results depend on the processing

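Of 13 member ratios of at least 1.5-fold, 7 kept their direction and side of that fold under the 9 alternatives that recompute the ratios, and 4 of the other 17 passed it under at least 1. In G1 cells, 2 members were higher and 0 lower in ldR-H460 than in H460, and CDKN1A had a log2 ratio of 0.030, and of -0.34 in place of -0.92 in ldR-H460 against mdR-H460. With a minimum of 10 CPM, BBC3 and FAS were not measured. Without the HSPA6 cluster 2 members, CCNG1 and BBC3, were higher in ldR-H460 than in H460. The shares of all genes given earlier for that pair are for all cells, not for G1 cells or for cells outside that cluster. Outside G1 cells, calls were lost for GDF15 in ldR-H460 against H460 (-0.58 with TMM), for GADD45A in mdR-H460 against H460 (0.57 with equal weight per cell, 0.54 without the HSPA6 cluster) and for FAS in ldR-H460 against mdR-H460 (-0.57 with totals without mitochondrially encoded and ribosomal protein genes, -0.52 without the HSPA6 cluster). BBC3 in ldR-H460 against mdR-H460 went from -0.43 to -0.79 with equal weight per cell and to 0.14 without the HSPA6 cluster. The causes were not tested.

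Pairs of members with r of 0.1 or more numbered 3 in H460, 3 in mdR-H460 and 1 in ldR-H460 with Spearman's rho, 21, 17 and 9 in unthinned cells, 14, 12 and 6 in G1 cells, and 2 and 2 in H460 and mdR-H460 without the HSPA6 cluster. With cells thinned to 2500 UMIs ldR-H460 had 1. G1 cells without that cluster, an alternative chosen after seeing the data, had 4, 5 and 6. Fano factors and other p53 targets without that cluster were also added after seeing the data. Shares over all gene pairs were computed for the main setting alone. The pair counts of the alternatives therefore have no background beside them. No cluster led by S100A8 arose at these settings, so leaving it out was not run. No paired analysis was possible because each group has 1 library. Depth limits BBC3 and FAS most, with 254 to 525 UMIs per library.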
